A study of Mus musculus with 6 samples.

Results

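Serglycin and the enzymes that build heparin chains on it were compared between mast cells of BALB/c and C57BL/6 mice. The 10 genes described are a list of names, taken for their known roles, from the 35297 genes to which transcripts of the RNA-seq tables could be assigned. They were chosen with earlier results of these data known. They are Srgn, Xylt1, Ext1, Ext2, Ndst1, Ndst2, Glce, Hs2st1, Hs6st1 and Hs3st1. Bone marrow-derived mast cells (BMMCs) were grown from the marrow of naive wild type mice with stem cell factor, IL-3, IL-9 and TGF-β1 added to the medium, and unstimulated cells were taken on day 20. In the study, c-Kit and FcεRI on such cells were checked by flow cytometry. Libraries S9 to S11 are from BALB/c and S12 to S14 from C57BL/6, so that n = 3 for each strain. The libraries of a strain are described as biological replicates, but the labels do not say whether each came from a separate mouse, and p-values measure only the spread between these libraries. The question of the comparison was whether mast cells of both strains differ in gene expression before any stimulus, and the labels give strain as the difference between the groups. They do not say whether the cultures of both strains were grown and prepared together, so that strain and any such batch cannot be told apart.

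Serglycin is the small intracellular proteoglycan of mast cell granules, and its long, highly sulfated sugar chains bind and store proteases, histamine and other positively charged granule content. In connective tissue mast cells these chains are mainly heparin, while cultured BMMCs are known to carry much chondroitin sulfate on serglycin. A heparin chain starts from xylose on the core protein, is lengthened by the EXT polymerases, and is then modified in order by N-deacetylation and N-sulfation, by epimerization of glucuronic acid to iduronic acid, and by sulfation at the 2-O, 6-O and 3-O positions.

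Each gene is described by its reads, its CPM and its TPM. The estimated number of reads was summed over the transcripts of the gene. CPM are these reads scaled to a common library size after correction by TMM (a scaling that sets the bulk of genes equal between libraries), and were used to compare strains. TPM divide reads by transcript length and were used to compare genes within a library. Levels and sums in TPM are also given for each strain, but they have no TMM correction. On the TPM scale the median gene was lower in C57BL/6, at a log2 fold change of -0.15 with 1 and -0.18 with 0.1 added before the log. Fold changes are C57BL/6 over BALB/c on the log2 scale, from edgeR's quasi-likelihood test on 12461 genes with Benjamini-Hochberg adjustment over all of them. A gene was called different at an adjusted p under 0.05, and a fold change above 2 was counted separately. Between 28273365 and 35873036 reads per BALB/c library and between 28801452 and 37100869 per C57BL/6 library were assigned to genes.

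The cells carried the RNA of mast cells in both strains. All 10 mast cell markers looked at passed the filter on low counts, 2 of them (Tpsb2 and Hdc) were over 2-fold higher in C57BL/6, and their summed level was 35433 to 39366 TPM in the BALB/c libraries and 34883 to 38151 TPM in the C57BL/6 libraries. Of 8 basophil markers, 4 (Mcpt8, Prss34, Cebpa and Ccl9) were over 2-fold higher in C57BL/6. Ms4a3 was higher by a log2 fold change of 0.99, Il18r1 was lower at -0.54, and Cd200r3 and Itga2 were not called. The summed level of this list was 515 to 530 TPM in BALB/c and 640 to 668 TPM in C57BL/6. Beside these and the other marker counts, 7.73% of all genes tested were over 2-fold higher in C57BL/6 and 5.54% over 2-fold lower. Of 8 macrophage markers, 6 had at most 2 reads in every library (Lyz2, C1qa, C1qb, C1qc, Csf1r and Mrc1), the other 2 (Adgre1 and Cd68) were over 2-fold higher in C57BL/6, and the summed level of the list was 0.937 to 1.77 TPM in BALB/c and 8.34 to 9.72 TPM in C57BL/6. Of 6 erythroid markers, Hbb-bt was over 2-fold higher and Klf1 over 2-fold lower in C57BL/6, with a summed level of 2.43 to 3.47 TPM in BALB/c and 17.3 to 17.7 TPM in C57BL/6. Of megakaryocyte and platelet markers, Gp5 was over 2-fold higher in C57BL/6, Itga2b was higher by 0.58 and Gp1ba lower by a log2 fold change of -0.33, while Pf4 and Ppbp had at most 2 reads in every library. Of 7 T or NK cell markers 1 passed the filter, with a summed level of 5.30 to 6.30 TPM in BALB/c and 4.23 to 5.04 TPM in C57BL/6. No neutrophil or eosinophil marker passed the filter (0 of 8 in each list), and all 7 stromal cell markers had at most 2 reads in every library. The part of these other cell markers in the differences below was not tested, and in RNA of whole cultures fewer cells of a type and less RNA per cell cannot be told apart.

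The strains differed little in serglycin and clearly in single enzymes of the chain. Hs3st1, the 3-O-sulfotransferase, was the 1 gene of the 10 past both thresholds and lay in C57BL/6 at 18.9% of its BALB/c level. Xylt1, Ndst2, Ndst1 and Hs2st1 were also lower in C57BL/6, and Ext1 and Hs6st1 were higher. Thus 7 of the 10 genes were called, against 52.9% of all genes tested, with 2 higher in C57BL/6 (27.0% of all genes) and 5 lower (25.9%). With the fold criterion, 1 of 10 was called (13.3% of all genes), namely 0 higher (7.73%) and 1 lower (5.54%). The median log2 fold change of the 10 genes was -0.15, beside -0.01 for all genes tested. In CPM, 8 of the 10 genes had all libraries of a strain above all of the other, against 61.9% of all genes. Since 52.9% of all genes tested were called, the count of 7 is no result about this group, and the size of each difference is given gene by gene.

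**Figure D1:**
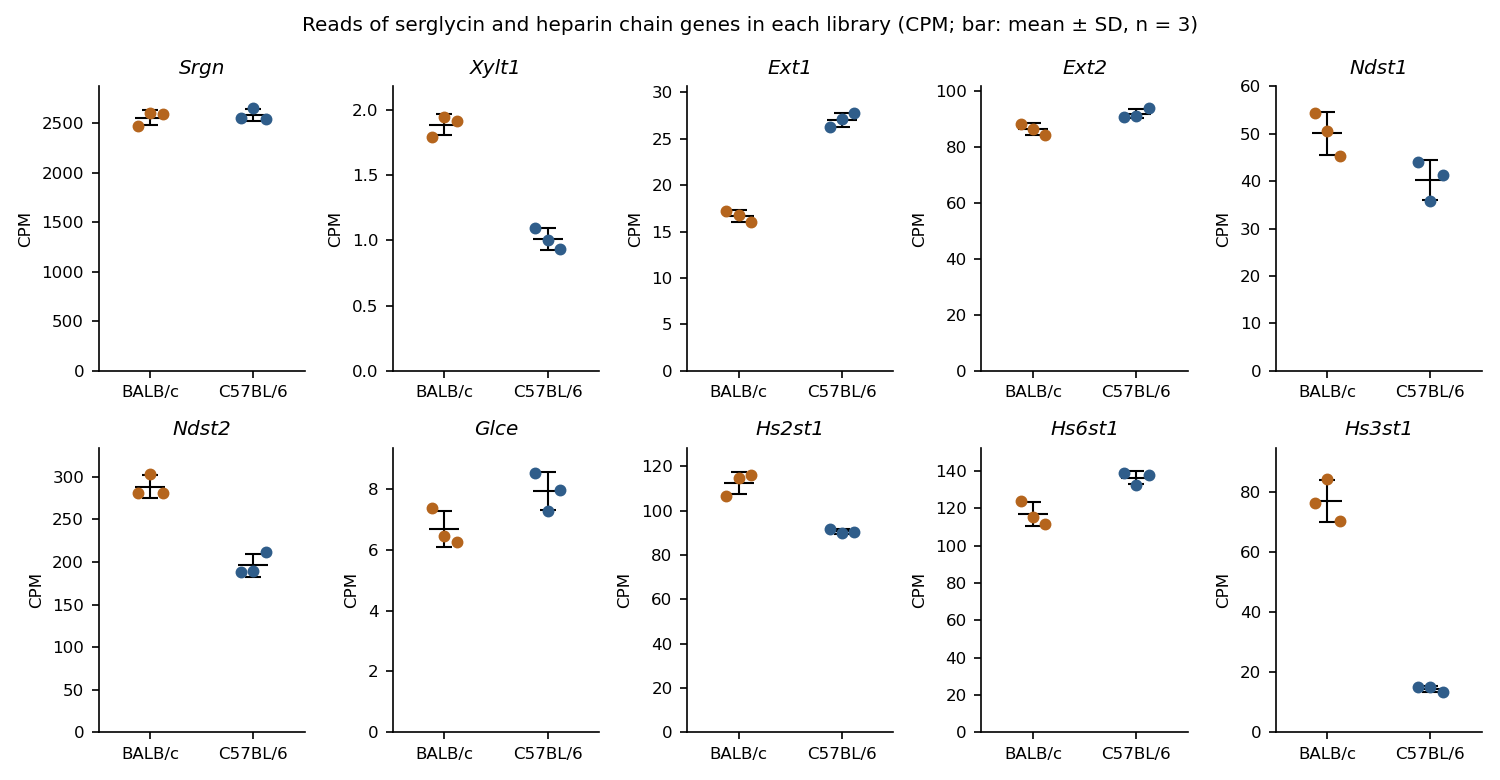
CPM of the 10 genes in each library, with dots for libraries and black bars for the mean ± SD (n = 3 for each strain). Hs3st1 fell from between 70.4 and 84.2 CPM in BALB/c to between 13.4 and 15.2 CPM in C57BL/6, while Srgn stayed between 2469 and 2655 CPM in all libraries.

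The promoters of Hs3st1 and Ndst2, which had the lowest adjusted p of the sulfation enzymes described, and of Srgn, which was not called, are shown to set the sequences around their starts side by side. The sequences are from RefSeq (assembly GRCm38.p6, made from C57BL/6J) and run 5′ to 3′ on the strand of the gene, from 250 bases before to 50 bases after its start. Of the 10 genes, 7 had an entry, and Srgn had one for each of 2 starts. Which start each transcript of the tables uses is not given in them, and the sequence of BALB/c was not analysed here. Capitals mark matches to 5 short motifs on either strand. The GATA motif was searched with the letters AGATAA. For E-boxes the letters CATGTG were used and, as a separate motif, CACGTG. The GC box was searched as GGGCGG and the TATA box as TATAAA. No matches overlap in the sequences shown. All 4 windows lie on the minus strand, Hs3st1 at chr5:39644582-39644881, Ndst2 at chr14:20734513-20734812, and Srgn at chr10:62527396-62527695 (start 1) and chr10:62507708-62508007 (start 2).
Hs3st1: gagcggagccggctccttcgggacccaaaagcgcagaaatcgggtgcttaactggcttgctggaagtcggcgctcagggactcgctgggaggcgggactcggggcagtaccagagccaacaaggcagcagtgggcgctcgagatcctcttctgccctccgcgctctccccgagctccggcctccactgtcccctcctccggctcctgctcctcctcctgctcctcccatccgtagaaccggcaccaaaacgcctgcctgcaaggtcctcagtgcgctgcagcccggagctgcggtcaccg
Ndst2: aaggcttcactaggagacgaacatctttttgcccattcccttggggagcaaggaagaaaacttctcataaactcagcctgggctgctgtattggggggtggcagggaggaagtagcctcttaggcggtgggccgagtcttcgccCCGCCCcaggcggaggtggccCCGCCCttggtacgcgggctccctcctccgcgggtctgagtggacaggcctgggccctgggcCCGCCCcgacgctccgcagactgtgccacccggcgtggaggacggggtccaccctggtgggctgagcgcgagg
Srgn start 1: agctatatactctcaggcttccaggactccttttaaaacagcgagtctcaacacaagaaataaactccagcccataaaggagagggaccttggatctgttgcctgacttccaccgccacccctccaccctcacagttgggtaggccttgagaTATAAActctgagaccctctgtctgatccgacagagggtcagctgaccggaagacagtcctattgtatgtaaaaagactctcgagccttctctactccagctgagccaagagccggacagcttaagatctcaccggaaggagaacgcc
Srgn start 2: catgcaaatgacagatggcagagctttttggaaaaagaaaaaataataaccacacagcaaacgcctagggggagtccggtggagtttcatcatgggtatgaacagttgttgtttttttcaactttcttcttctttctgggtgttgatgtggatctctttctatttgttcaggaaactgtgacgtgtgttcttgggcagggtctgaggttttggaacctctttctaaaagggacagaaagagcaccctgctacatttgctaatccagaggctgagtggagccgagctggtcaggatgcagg

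The Hs3st1 window holds none of these letters, although 67% of its bases are G or C and it has 24 CG pairs. The Ndst2 window holds the GC box letters on the reverse strand at 3 places, which begin 106, 85 and 23 bases before the gene start, and has 66.7% G or C and 20 CG pairs. Both are richer in CG pairs than the median of 7 over the 32851 promoters of the table (quartiles 3 and 20), whose median G or C content is 52.7%. The Srgn windows hold fewer CG pairs than these, with 8 CG pairs and 51% G or C at start 1 and 4 CG pairs and 45% G or C at start 2. The TATAAA letters stand 98 bases before start 1, and start 2 holds none of the letters. For comparison, AGATAA was found in 11.2% of all promoters, CATGTG in 14.2%, CACGTG in 7.15%, GGGCGG in 35.7% and TATAAA in 13.6%. Among the entries not printed, those of Glce, Hs2st1 and Hs6st1 also hold GC box letters, and Ext2 holds CACGTG, which begins 58 bases before its start. A match is a run of letters and not a measured binding site.

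Srgn, which encodes the serglycin core protein (GRCm39, chr10:62329029-62363238, minus strand), was among the most abundant RNAs of these cells and ranked 21 by mean TPM among all genes. The reads were 78614 in S9, 77661 in S10 and 97416 in S11, and 81634 in S12, 71833 in S13 and 90107 in S14. After scaling these are 2469, 2606 and 2591 CPM in BALB/c and 2555, 2655 and 2545 CPM in C57BL/6, and the strains overlapped. The log2 fold change was 0.02 with a 95% interval from -0.06 to 0.10 (adjusted p = 0.717, edgeR's quasi-likelihood test), so that a difference above 0.10 in either direction lies outside the interval. Its absolute fold change stood at percentile 4.33 of all genes tested. On the TPM scale, which has no TMM correction, the BALB/c libraries held 3781 to 3931 TPM and the C57BL/6 libraries 3400 to 3457 TPM without overlap. That scale moves the median gene as well, and with plain library size the median of all genes was -0.15 and that of Srgn -0.13 (adjusted p = 0.0102 by the same test), which is 0.02 above the median gene.

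Nearly all reads of Srgn fell on 1 predicted transcript of 1108 bases, XM_006513376.5, with a share of 96.4%, 96.0% and 96.1% in S9 to S11 and 95.5%, 95.8% and 96.1% in S12 to S14. The curated transcript NM_011157.3 of 1551 bases took 3.52% to 3.84% in BALB/c and 3.76% to 4.36% in C57BL/6. These shares overlapped between the strains (p = 0.2 and p = 0.3, two-sided exact permutation tests, in which 3 libraries against 3 cannot give a p below 0.1). With predicted transcripts left out, and with them nearly all reads of the gene, the log2 fold change of Srgn was 0.16 (SE 0.08, adjusted p = 0.152, edgeR's quasi-likelihood test), above the interval given before. The assignment of reads between both transcripts is an estimate whose error is not in the tables. On the opposite strand, exons of Gm56955 cover 8.50% of the exon bases of Srgn in GENCODE. The library kit keeps the strand, and the strand setting of the read assignment is not given in the sources used here.

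Serglycin was by far the main proteoglycan core protein of both strains, with 99.3% ± 0.1001 of the summed TPM of 24 core protein genes in BALB/c and 96.9% ± 0.144 in C57BL/6 (SD, n = 3, no overlap, exact permutation p = 0.1). Of the 23 others, 8 passed the filter, and 3 were higher and 3 lower in C57BL/6, 6 in all against 52.9% of all genes tested. Past both thresholds were 5, against 13.3%. Col18a1, the core of collagen XVIII, was higher in C57BL/6, with 997, 598 and 1016 reads in BALB/c and 10458, 9386 and 12676 reads in C57BL/6 (log2 fold change 3.72, SE 0.13, adjusted p = 5.23e-08 by edgeR's quasi-likelihood test). Its mean level rose from 7.59 to 88.3 TPM between the strains, which is still far below Srgn, and exons of Slc19a1 on the opposite strand cover 12.7% of its exon bases. Versican (Vcan), a large chondroitin sulfate proteoglycan, and glypican 4 (Gpc4), a heparan sulfate proteoglycan of the cell surface, were higher in C57BL/6 by 2.55 and 2.61 on the log2 scale (adjusted p = 3.18e-09 and 8.01e-06, same test). Perlecan (Hspg2), a heparan sulfate proteoglycan of basement membranes, and glypican 2 (Gpc2) were lower, with log2 fold changes of -4.25 and -1.27 (adjusted p = 1.31e-06 and 0.00227, same test), both below 1 TPM in every library. With predicted transcripts left out, neither was among the genes tested. The Gpc2 value is uncertain, since Gm43720 overlaps 55.3% of its exon bases on the same strand and shares 50.9% of its 31-base words. All 5 of these past both thresholds were lower in level than Srgn in every library.

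In order of TPM, Srgn was followed in BALB/c by Ndst2 (110 TPM), Hs3st1 (72.2), Hs6st1 (46.7), Ext2 (45.1), Hs2st1 (26.0), Ndst1 (7.83), Ext1 (7.19), Glce (2.02) and Xylt1 (0.921). The libraries of neighbours in this order overlapped for Hs6st1 and Ext2 and for Ndst1 and Ext1, and were apart for all other neighbours. In C57BL/6 the order was Ndst2 (66.3 TPM), Hs6st1 (48.2), Ext2 (42.3), Hs2st1 (18.5), Hs3st1 (12.05), Ext1 (10.3), Ndst1 (5.74), Glce (2.11) and Xylt1 (0.436), with all neighbours apart. Hs3st1 thus took place 3 of the 10 in BALB/c and place 6 in C57BL/6, and Ext1 and Ndst1 changed places.

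**Figure D2:**
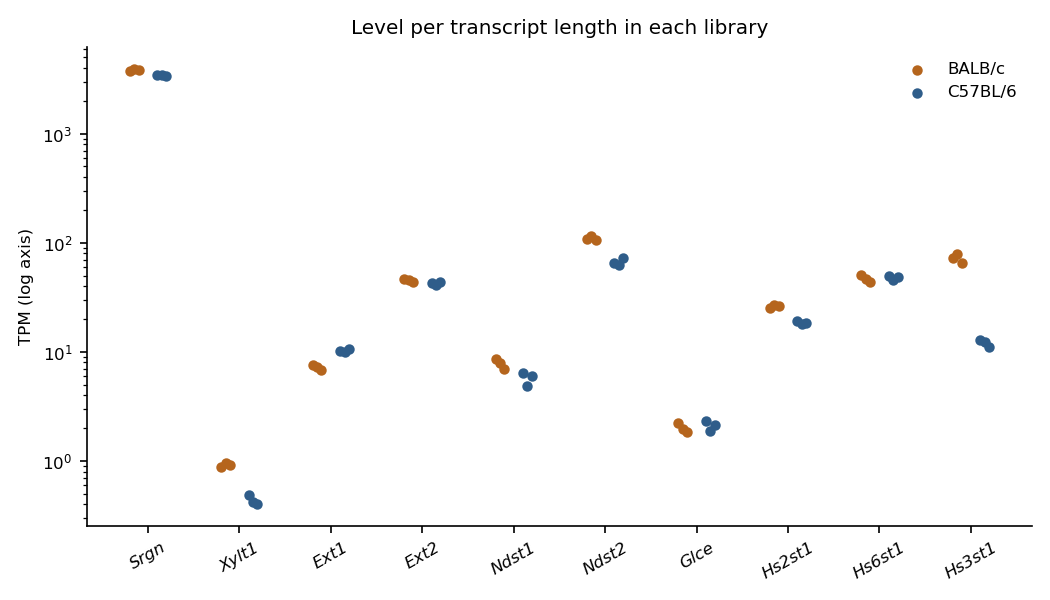
TPM of the 10 genes on a log axis, with 1 dot for each library. Srgn lies between 3400 and 3931 TPM and all chain enzymes at 116 TPM or below, and the separation of the strains is widest for Hs3st1.

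Chain initiation was measured with Xylt1, which transfers the first xylose to a serine of the core protein (GRCm39, chr7:116979979-117272803, plus strand). Xylt1 had few reads, with 57, 58 and 72 in BALB/c against 35, 27 and 33 in C57BL/6. The strains did not overlap, at 1.79 to 1.95 CPM in BALB/c and 0.932 to 1.10 CPM in C57BL/6. The log2 fold change was -0.90 with a 95% interval from -1.31 to -0.49 (SE 0.18, adjusted p = 0.00257, edgeR's quasi-likelihood test), so that the interval takes in a 2-fold change. Its paralog Xylt2, the second xylosyltransferase, had 307, 307 and 351 reads in BALB/c and 308, 235 and 365 in C57BL/6, and was not called (log2 fold change -0.03, 95% interval -0.24 to 0.18). Xylt2 stood at 4.58 ± 0.246 times the TPM of Xylt1 in BALB/c and 8.42 ± 1.19 times in C57BL/6 (SD, n = 3, two-sided exact permutation p = 0.1, adjusted over the 5 ratios tested 0.125).

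The other enzymes of the linkage region, the short sugar sequence that joins the chain to the core, included 2 called genes higher in C57BL/6. Of 7 genes of this step 6 passed the filter, and 2 were higher (27.0% of all genes tested), 1 (Xylt1) was lower (25.9%) and 3 were not called. Fam20b, a kinase that phosphorylates the xylose, was named after its values were seen and was higher by 0.71 on the log2 scale (SE 0.04, adjusted p = 7.13e-07, edgeR's quasi-likelihood test), with 26.7 to 28.5 TPM in BALB/c and 37.9 to 41.2 TPM in C57BL/6. B3gat3, which adds the glucuronic acid of the linkage and had the highest TPM of the step in the mean of all libraries though not in S12 and S13, was not called (log2 fold change 0.02, 95% interval -0.09 to 0.13).

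The polymerases Ext1 and Ext2 form a complex that adds glucuronic acid and N-acetylglucosamine in turn. Ext1 (GRCm39, chr15:52927434-53209602, minus strand) had 549, 500 and 603 reads in BALB/c and 838, 733 and 984 reads in C57BL/6. Every C57BL/6 library (26.2 to 27.8 CPM) lay above every BALB/c library (16.04 to 17.2 CPM), with a log2 fold change of 0.70 (SE 0.06, 95% interval 0.57 to 0.83, adjusted p = 1.07e-05, edgeR's quasi-likelihood test). Ext2 (GRCm39, chr2:93491373-93653003, minus strand) had 88.3, 86.5 and 84.3 CPM in BALB/c and 90.8, 91.0 and 93.7 CPM in C57BL/6. These ranges were apart by little, and Ext2 was not called (log2 fold change 0.09, 95% interval 0.01 to 0.17, adjusted p = 0.0681, same test). The partner genes therefore stood in different proportion within a library. Ext2 had 6.28 ± 0.0891 times the TPM of Ext1 in BALB/c and 4.11 ± 0.0645 times in C57BL/6, without overlap (SD, n = 3, exact permutation p = 0.1, adjusted 0.125).

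Among the EXT-like paralogs, Extl3, which is known to act at the start of the heparan sulfate chain, was lower in C57BL/6, with 316, 289 and 366 reads in BALB/c and 218, 173 and 265 in C57BL/6 (log2 fold change -0.50, SE 0.09, adjusted p = 0.00133, edgeR's quasi-likelihood test). With predicted transcripts left out the log2 fold change was -0.49, close to this value, but with an SE of 1.15 it was not called (adjusted p = 0.767, same test). Extl1 (-0.17, 95% interval -0.37 to 0.03, with exons of Slc30a2 on the opposite strand over 15.8% of its exon bases) and Extl2 (0.10, 95% interval -0.10 to 0.31) were not called. Of the 5 polymerase genes, all of which passed the filter, 1 was higher (27.0% of all genes tested) and 1 lower (25.9%). Their summed level, without TMM correction, was 64.2 ± 2.06 TPM in BALB/c and 62.3 ± 1.503 TPM in C57BL/6 (SD, n = 3) and overlapped.

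N-deacetylase/N-sulfotransferases replace acetyl groups of the young chain by sulfate, and Ndst2 is the member known to be needed for heparin in mast cells. Ndst2 (GRCm39, chr14:20773794-20784737, minus strand) had 8944, 9041 and 10540 reads in BALB/c and 6010, 5109 and 7491 in C57BL/6. In CPM the BALB/c libraries stood at 281, 303 and 280 and the C57BL/6 libraries at 188, 189 and 212, without overlap. The level in C57BL/6 was 68.1% of that in BALB/c (log2 fold change -0.55, SE 0.06, 95% interval -0.68 to -0.43, adjusted p = 3.75e-05, edgeR's quasi-likelihood test). In both strains Ndst2 remained the most abundant enzyme gene of the 10. Its curated transcript NM_010811.2 took 73.5% to 77.7% of the reads in BALB/c and 72.8% to 73.4% in C57BL/6.

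Ndst1, the broadly expressed enzyme of the same family, had 1730, 1510 and 1702 reads in BALB/c and 1405, 966 and 1458 in C57BL/6. Its CPM were 45.3 to 54.3 in BALB/c and 35.7 to 44.0 in C57BL/6, which is a log2 fold change of -0.31 (SE 0.09, 95% interval -0.51 to -0.12, adjusted p = 0.0140, edgeR's quasi-likelihood test). This value rests on predicted transcripts, which held 50.2% to 70.7% of the reads of Ndst1. Without them the log2 fold change was -0.01 (SE 0.24, adjusted p = 0.967, same test). The curated transcripts of Ndst1 were unstable between libraries of a strain, and NM_001348103.1 took 40.0% of the reads in S13 and 0% in all other libraries. The ratio of Ndst2 to Ndst1 was 14.2 ± 1.38 in BALB/c and 11.7 ± 1.31 in C57BL/6 (SD, n = 3) and overlapped (exact permutation p = 0.2).

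Another enzyme of this step, Ndst3, was higher in C57BL/6, where it had 524, 488 and 647 reads against 127, 75 and 105 in BALB/c (log2 fold change 2.50, SE 0.15, adjusted p = 1.32e-06, edgeR's quasi-likelihood test). It stayed the least abundant of the 3 in both strains and made up 0.688% ± 0.202 of the summed Ndst TPM in BALB/c and 5.45% ± 0.256 in C57BL/6 (SD, n = 3). Ndst4 had 0 reads in every library. Ndst2 and Ndst3 thus differed in opposite directions.

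Glce encodes the epimerase that turns glucuronic into iduronic acid, and Hs2st1 sulfates the iduronic acid at its 2-O position. Glce (GRCm39, chr9:61964527-62030067, minus strand) had 234, 192 and 235 reads in BALB/c and 272, 197 and 282 in C57BL/6. At 6.25 to 7.35 CPM in BALB/c and 7.28 to 8.51 CPM in C57BL/6 the strains overlapped, and Glce was not called (log2 fold change 0.25, 95% interval 0.01 to 0.49, adjusted p = 0.0736, edgeR's quasi-likelihood test). Without S9, the highest BALB/c library, it was called at 0.32 (adjusted p = 0.0367, same test). In S10, 36.7% of the Glce reads were assigned to NM_001368304.1, which had 0 reads in all other libraries.

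Hs2st1 (GRCm39, chr3:144134693-144276528, minus strand) had 107, 114 and 116 CPM in BALB/c and 91.8, 89.9 and 90.3 CPM in C57BL/6. All BALB/c libraries lay above all C57BL/6 libraries, and the log2 fold change was a modest -0.31 (SE 0.04, 95% interval -0.41 to -0.21, adjusted p = 0.000260, edgeR's quasi-likelihood test). Exons of Selenof on the opposite strand cover 4.70% of the exon bases of Hs2st1. The ratio of Hs2st1 to Glce in TPM within a library was 12.99 ± 1.66 in BALB/c and 8.78 ± 0.613 in C57BL/6, without overlap (SD, n = 3, exact permutation p = 0.1, adjusted 0.125).

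Hs6st1 adds sulfate at the 6-O position of glucosamine (GRCm39, chr1:36107437-36145527, plus strand). Its CPM were 124, 115 and 112 in BALB/c against 139, 133 and 138 in C57BL/6. The strains did not overlap and the log2 fold change was 0.22 (SE 0.05, 95% interval 0.12 to 0.33, adjusted p = 0.00350, edgeR's quasi-likelihood test), but the call was lost with plain library size (0.08, adjusted p = 0.201, same test), where the median of all genes was -0.15. Relative to the median gene Hs6st1 stood at 0.23 in both settings. In TPM the strains overlapped, at 43.9 to 50.2 in BALB/c and 45.6 to 50.0 in C57BL/6. Exons of Gm37335 on the opposite strand cover 6.61% of the exon bases of Hs6st1. The paralog Hs6st2 was not called (log2 fold change 0.06, 95% interval -0.10 to 0.21), and Hs6st3 had 0 reads in every library. Relative to Hs2st1, Hs6st1 stood at 1.80 ± 0.185 in BALB/c and 2.61 ± 0.0475 in C57BL/6 (SD, n = 3, no overlap, exact permutation p = 0.1, adjusted 0.125).

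Hs3st1 places the rare 3-O-sulfate that is known as part of the antithrombin binding site of heparin (GRCm39, chr5:39770231-39912818, minus strand). The reads were 2436, 2511 and 2645 in BALB/c against 485, 409 and 473 in C57BL/6. In CPM these are 76.5, 84.2 and 70.4 in BALB/c against 15.2, 15.1 and 13.4 in C57BL/6. The lowest BALB/c library thus lay well above the highest C57BL/6 library. The log2 fold change was -2.41 (SE 0.08, 95% interval -2.59 to -2.23, adjusted p = 3.27e-08, edgeR's quasi-likelihood test), which is 5.30-fold lower in C57BL/6 and at percentile 95.2 of the absolute fold changes of all genes tested. Over 18 alternative settings it ranged from -2.57 to -2.34 and was called in each. The curated transcript NM_010474.2 took 97.4% to 98.0% of its reads in BALB/c and 97.2% to 99.4% in C57BL/6, so that the difference was not one between transcripts of the gene.

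Of the other 3-O-sulfotransferases, Hs3st6 was the 1 that passed the filter, and it went the other way. It had 0, 1 and 3 reads in BALB/c and 22, 27 and 46 in C57BL/6, with a fitted log2 fold change of 4.51 and a wide 95% interval from 3.20 to 5.82 (adjusted p = 0.000172, edgeR's quasi-likelihood test). Leaving out 1 library at a time gave 3.99 (without S9) to 5.63 (without S11). Hs3st2 and Hs3st3b1 had at most 5 reads in any library, Hs3st3a1 and Hs3st4 at most 1, and Hs3st5 had 0. Hs3st1 made up 99.9% ± 0.0562 of the summed Hs3st TPM in BALB/c and 91.1% ± 3.39 in C57BL/6, and Hs3st6 0.0797% ± 0.0752 and 8.63% ± 3.32 (SD, n = 3). In TPM the gain of Hs3st6, from a mean of 0.0560 to 1.13, was small beside the fall of Hs3st1 from 72.2 to 12.05.

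**Figure D3:**
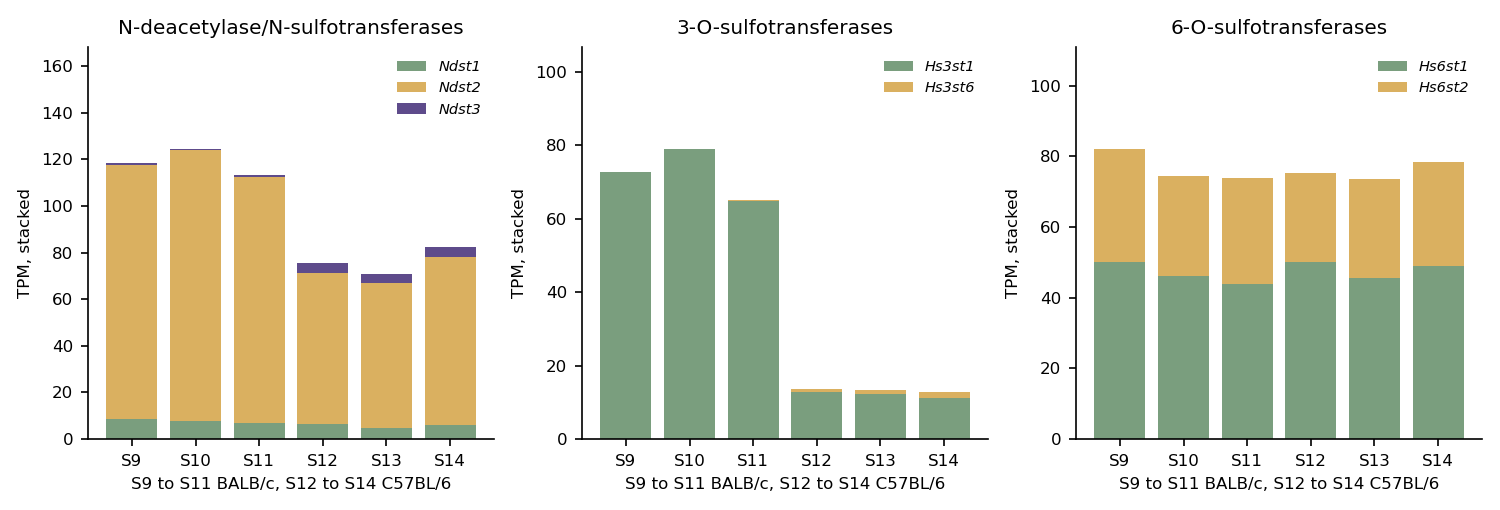
TPM of the N-deacetylase/N-sulfotransferases, 3-O-sulfotransferases and 6-O-sulfotransferases that passed the filter, stacked for each library. The height falls from BALB/c to C57BL/6 for the first pair of panels, where Ndst2 and Hs3st1 are lower, while Ndst3 and Hs3st6 form thin caps that are thicker in C57BL/6.

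Among genes with several transcripts in the tables, leaving out transcripts whose mean share rounds to 100%, 12 transcripts of the genes described held a mean share of at least 10%, and the shares of 3 did not overlap between the strains, against 18.5% of 15504 such transcripts of all genes. Of these, 1 was the curated Ndst2 transcript given above, whose strains were apart by little, at 73.5% in S11 and 73.4% in S12. The others belong to Ext2, where NM_010163.3 took 83.5% to 85.3% in BALB/c and 79.8% to 81.7% in C57BL/6, and NM_001355075.1 took 11.5% to 14.6% and 16.5% to 18.5%. Between them these Ext2 transcripts held nearly all reads of the gene, so that their shares are not independent. Ext1, Hs6st1 and Xylt1 each had 1 transcript in the tables.

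**Figure D4:**
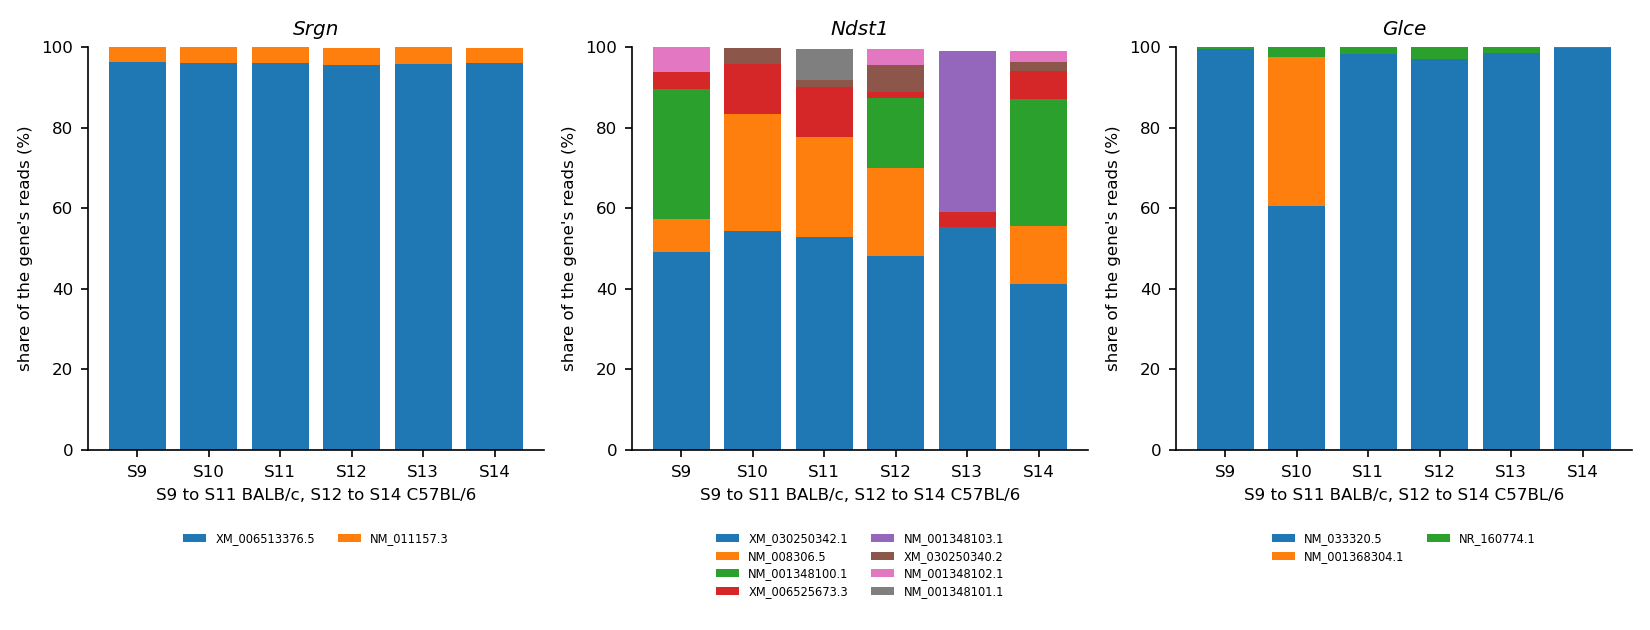
Share of the reads of Srgn, Ndst1 and Glce assigned to each transcript, for each library, with transcripts below a mean share of 1% left out. The 2 transcripts of Srgn keep their shares in all libraries, while those of Ndst1 change between libraries of the same strain and Glce departs in S10 alone.

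The wider heparan sulfate and heparin list, with linkage, polymerase, modification and breakdown genes, held 40 genes of which 28 passed the filter. In C57BL/6, 9 were higher and 8 lower, 17 in all (52.9% of all genes tested), and 4 passed the fold criterion too, 2 in each direction (13.3% of all genes). The median log2 fold change was 0.10 beside -0.01 for all genes, and the count of called genes is near that of all genes. Outside the 10 described genes, 19 of 31 passed the filter, and 7 were higher (27.0% of all genes tested) and 3 lower (25.9%). The summed level of the modification genes was 296 ± 13.7 TPM in BALB/c and 186 ± 8.09 TPM in C57BL/6 (SD, n = 3, no overlap, exact permutation p = 0.1), and the difference lay mainly in Ndst2 and Hs3st1. This sum has no TMM correction and is not relative to the median gene, which was also lower in C57BL/6 on the TPM scale. Among 8 lysosomal breakdown genes that passed the filter, 3 were higher (27.0% of all genes tested) and 2 lower (25.9%). Sgsh, the sulfamidase that removes N-sulfate from the chain, was lower in C57BL/6, at 27.2 to 30.8 TPM in BALB/c and 9.32 to 10.6 TPM in C57BL/6 (log2 fold change -1.38, SE 0.05, adjusted p = 8.22e-08, edgeR's quasi-likelihood test). Gusb, the β-glucuronidase and the most abundant gene of the breakdown list, was higher by 0.19 (adjusted p = 0.00321, same test), a call lost with plain library size (0.042, adjusted p = 0.389). Exons on the opposite strand cover 20.4% of the exon bases of Sgsh (Card14) and 11.9% of those of Gusb (Vkorc1l1).

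Chondroitin sulfate, the other chain of serglycin, is made by a separate set of enzymes from the same linkage. Of 16 genes of chondroitin and dermatan sulfate synthesis 10 passed the filter, and 6 were higher (27.0% of all genes tested) and 1 lower (25.9%) in C57BL/6, with a median log2 fold change of 0.28. Past both thresholds, 1 was higher (7.73% of all genes tested) and 1 lower (5.54%). Csgalnact1, which starts the chondroitin chain, was higher by 1.37 (SE 0.10, adjusted p = 5.04e-06, edgeR's quasi-likelihood test), with 464, 328 and 416 reads in BALB/c and 1005, 857 and 1127 in C57BL/6. Chpf, a chondroitin polymerizing factor, was lower by far, with 435, 498 and 572 reads against 123, 95 and 123 (log2 fold change -2.07, SE 0.11, adjusted p = 5.14e-07, same test). The paralogs of both, named after their values were seen, were more abundant and higher in C57BL/6. Csgalnact2 had 33.5 to 34.7 TPM in BALB/c and 42.3 to 47.8 TPM in C57BL/6 (log2 fold change 0.58, adjusted p = 2.43e-05, same test), and Chpf2 had 36.2 to 38.2 and 40.4 to 44.8 TPM (0.37, adjusted p = 0.000103, same test). The Chpf2 value is uncertain in that exons of Smarcd3 on the opposite strand cover 41.3% of its exon bases and those of Abcf2 13.15%. Chsy1, the chondroitin synthase with the highest TPM of the list, was not called (-0.03, 95% interval -0.11 to 0.04). Chst15, the sulfotransferase that makes the disulfated unit typical of BMMC chondroitin sulfate, was named after its values were seen and was higher by 0.27 (SE 0.07, adjusted p = 0.00738, same test), a call lost with plain library size and with limma on the log2 of TPM, and exons of Gm10584 on the opposite strand cover 24.1% of its exon bases. The summed level of the list was 461 ± 13.4 TPM in BALB/c and 456 ± 4.81 TPM in C57BL/6 (SD, n = 3) and overlapped. This sum has no TMM correction, and the median gene was lower in C57BL/6 on the TPM scale. The overlap is therefore not one relative to the median gene.

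Sulfate donor and sugar nucleotide supply showed 3 genes higher and 3 lower among the 14 of 15 that passed the filter, against 52.9% of all genes tested called. Past both thresholds were 0 of the 14, against 13.3% of all genes tested. Papss2, which makes the sulfate donor PAPS and had the highest TPM of this list, was lower in C57BL/6, at 200 to 212 TPM in BALB/c and 131 to 143 TPM in C57BL/6 (log2 fold change -0.41, SE 0.04, adjusted p = 1.90e-05, edgeR's quasi-likelihood test).

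**Figure D5:**
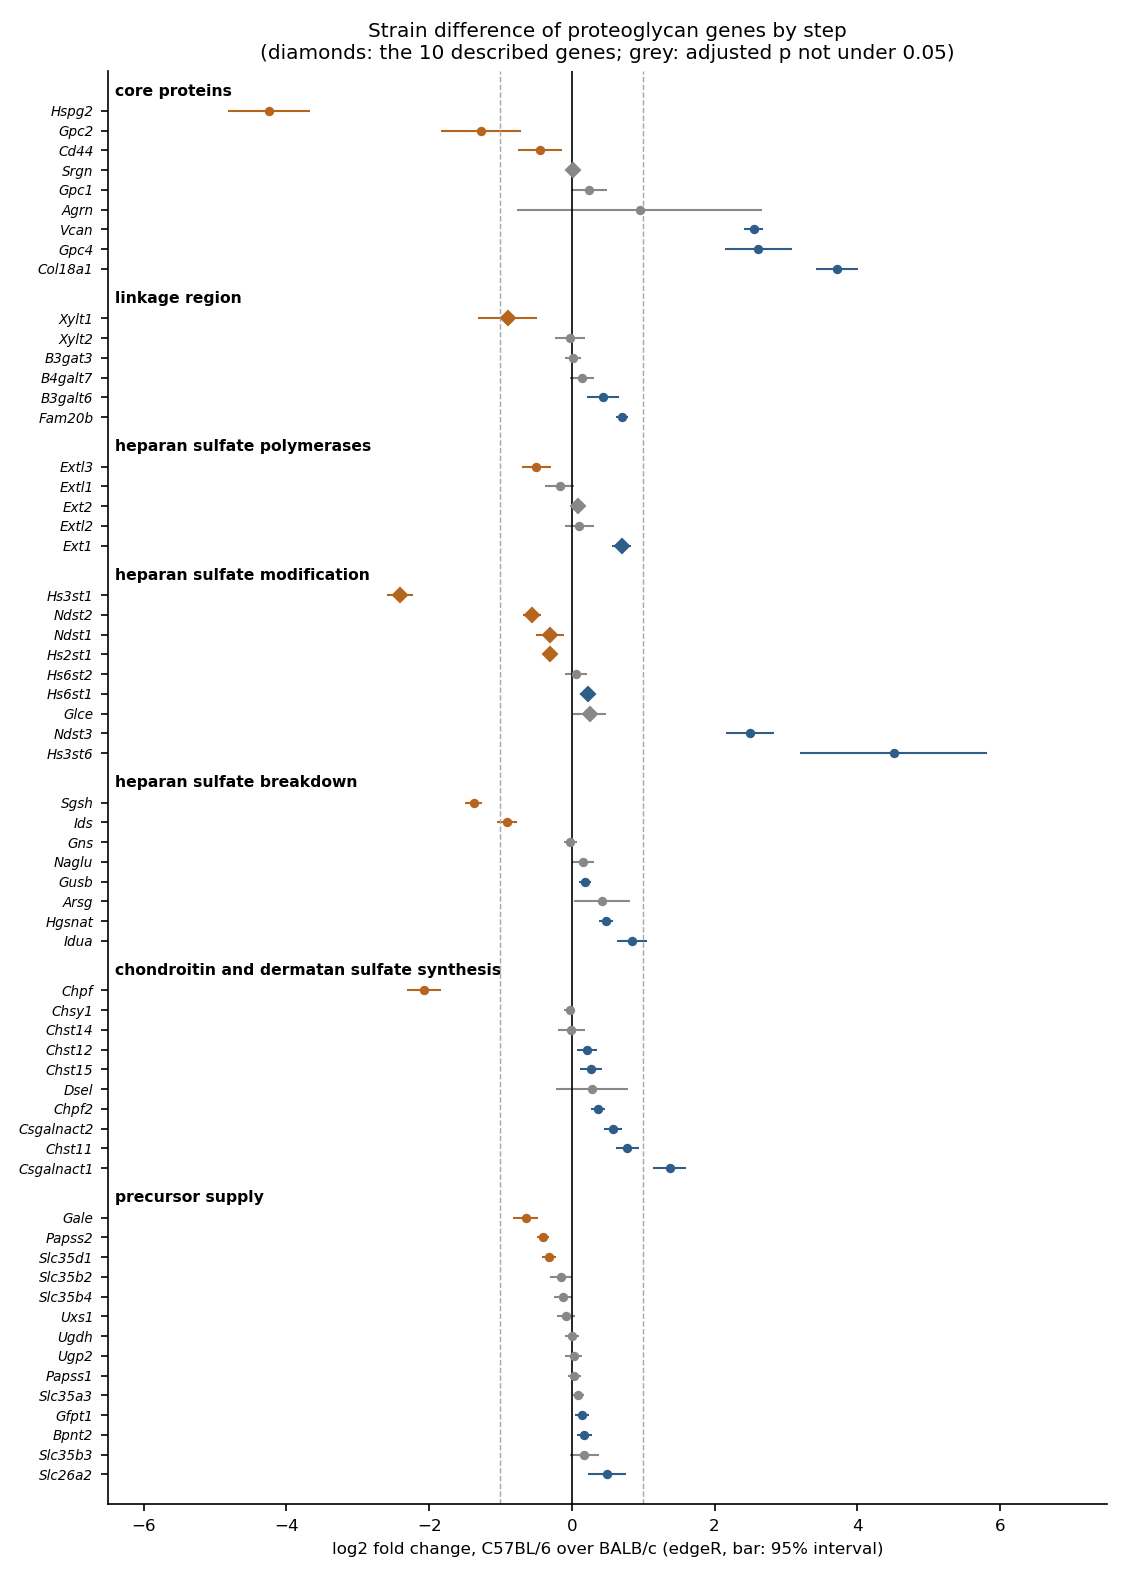
Strain difference (C57BL/6 over BALB/c, log2) with its 95% interval for the genes of each step that passed the filter, diamonds marking the 10 described genes and grey those not called. Hs3st1 at -2.41 is the farthest of the diamonds from 0, and Srgn at 0.02 lies at the zero line.

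The genes whose log2 CPM followed that of Srgn most closely over the 6 libraries were Gm42329 (Pearson r = 0.963), Iqcb1 (0.960) and Insig2 (0.951). These are the highest of 12461 values over few libraries that share depth and scaling, in which Srgn spanned a range of 0.10 on the log2 scale, and they are given as a description.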

How the data were processed

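RNA of BMMCs on day 20 was sequenced from 3 BALB/c and 3 C57BL/6 cultures with a stranded mRNA kit. Per the labels, the authors checked reads with FastQC 0.11.5 and assigned them to transcripts with Salmon 0.8.2. The deposited tables give for each of 129698 RefSeq transcripts an estimated count (reads split between transcripts give fractions) and the TPM that the authors' tool computed from it. The methods of the study name Ensembl GRCm39, whereas the deposited names are RefSeq accessions.

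Accessions without version were matched to symbols through a RefSeq gene table (GRCm38.p6, used for names only). In all 106440 matched (82.1%), and the unmatched held 2.69% to 3.12% of reads and were not used. The sums of estimated counts over each gene were rounded to whole numbers. The main test was edgeR 4.0.16 (R 4.3.3) with the quasi-likelihood test, TMM factors (0.940 to 1.05), its filter at a minimum count of 10 and strain as the single term. Gene positions and exon overlaps are from GENCODE on GRCm39 and promoters from RefSeq on GRCm38.p6, and coordinates of these builds are not comparable. Of the 31-base words of each of the 10 genes, at most 1.04% were shared with any single other gene (Glce with Ifitm2). Single values (ratios, shares, sums) were tested by exact permutation (scipy 1.17.1). On simulated counts for the comparison of strains, with 12461 genes and 200 changed 4-fold, edgeR recovered 196 with 1 false call and DESeq2 193 with 0. The biological coefficient of variation was 0.0665. Standard errors of the 10 log2 fold changes lay between 0.04 and 0.10, except for Xylt1 (0.18), which had the fewest reads of the 10.

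The genes named are the 10 described, of each pathway list those past both thresholds, the most abundant one, paralogs of the 10 genes with reads, and the 3 most like Srgn. Fam20b, Csgalnact2, Chpf2 and Chst15 fall outside this rule and were named after their values were seen. The members and lists were chosen with earlier results of these data known. Alternatives were DESeq2 1.42.0 and edgeR with and without a transcript length offset, other size factors, other filters, limma 3.58.1 on the log2 of TPM with 1 or 0.1 added, unmatched transcripts kept, predicted transcripts left out, and each library left out in turn. Promoter motifs were searched on both strands. Lung samples, RT-qPCR and protein assays were not analysed here. Some cell type markers are not reported here.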

Additional observations from a re-analysis of the deposited data

How the results depend on the processing

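Ndst2, Hs2st1, Hs3st1, Ext1 and Xylt1 kept their direction and call in all 18 alternatives. The number of the 10 genes called at the adjusted p was 6 to 8, and 1 was past both thresholds except with plain library size, where it was 2, since Xylt1 then reached -1.04. Plain library size and limma on log2(TPM + 1) or log2(TPM + 0.1) moved the median of all genes to -0.15, -0.15 and -0.18. With these 3 settings in that order, Srgn turned to -0.13, -0.17 and -0.17 (adjusted p = 0.0102, 0.00864 and 0.00958), Ext2 to -0.055, -0.088 and -0.090, Extl2 to -0.040, -0.064 and -0.079, Hs6st2 to -0.089, -0.12 and -0.13 and B3gat3 to -0.13, -0.16 and -0.17, and Hs6st1 lost its call at 0.08, 0.04 and 0.05. Relative to the median gene, Srgn was then at 0.02, -0.02 and 0.01. With upper-quartile factors Srgn was -0.0043 and B3gat3 -0.0027. With predicted transcripts left out Srgn was 0.16, Hs6st2 was -0.30 and the calls of Ndst1 (at -0.01) and Extl3 (at -0.49, SE 1.15) were lost. Leaving out each library in turn gave -0.0096 to 0.0284 for Srgn, -0.023 to 0.051 for B3gat3 and -0.088 to 0.036 for Xylt2, and Glce was called without S9. The causes were not tested. Extl1 and Chsy1 were called and Chst15 lost its call under the same 3 settings, B3gat3 was called as lower under both limma settings (adjusted p = 0.0260 and 0.0249), and Gusb lost its call with plain library size.

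The list of heparan sulfate and heparin genes had 15 to 19 called and 3 to 6 past both thresholds, and the chondroitin sulfate list 6 or 7 and 2. Transcript shares without overlap numbered 4 of 16 at a mean share of at least 5% (3473 of 19565 over all genes) and 3 of 12 as shares of TPM (2812 of 15363). All 5 ratios kept their direction in CPM. No paired analysis was possible because the libraries carry no number shared by the strains. With 3 libraries against 3, exact tests cannot go below 0.1, and Xylt1 and Hs3st6, with few reads, had an SE of 0.18 and 0.58. With 1 added to TPM before the log, which shrinks the fold of low genes by construction, Xylt1 was -0.42, Hs3st6 0.997, Gpc4 0.93, Hspg2 -0.55 and Gpc2 -0.45, each still called. Hspg2 and Gpc2 were not tested with predicted transcripts left out, nor Hspg2 and Hs3st6 with at least 10 counts required in every library.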
